A study of Mus musculus with 2 samples.

Results

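The B cell receptor complex and its proximal kinases were represented by 9 genes, which were chosen by gene symbol from the 21829 symbols of the expression table. They encode the signal-carrying chains of the receptor (Cd79a and Cd79b), a tetraspanin of its coreceptor (Cd81), Src family kinases that start the signal (Lyn and Blk), the kinases Syk and Btk, the adaptor Blnk and the phospholipase Plcg2. All 9 were present on 1 row each. Their transcripts were measured by RNA sequencing in 2 populations of splenic marginal zone (MZ) B cells from untreated, wild-type male C57BL/6 mice, divided by how much of the costimulatory protein CD80 they carried. CD80high and CD80low cells had 1 library each, so every difference below is between 2 libraries, with no replicate check and no test. The sources used here do not state the age of the mice, how many stood behind a library or what other markers were sorted on. The study asked how the 2 populations differ in transcription.

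A B cell recognises antigen through membrane immunoglobulin, which has hardly any cytoplasmic tail and signals through the CD79A and CD79B chains bound to it. Src family kinases phosphorylate tyrosine motifs in the CD79 tails, SYK docks on them and becomes active, and SYK then phosphorylates the adaptor BLNK, on which BTK and PLCG2 are brought together. Active PLCG2 cleaves a membrane lipid into a calcium-releasing messenger and diacylglycerol. Marginal zone B cells, which sample blood passing through the spleen, are known for brisk responses to such signals. Immunoglobulin genes were not analysed here, so the antigen-binding part of the receptor has no value.

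The 4 genes with an entry among RefSeq promoter windows (GRCm38.p6) and a difference of at least 1.1-fold are shown first, because 2 of them, Cd79a and Btk, were lower in CD80high, and the other two, Syk and Plcg2, were higher. Each window runs from 250 bases before to 50 bases after the annotated start, 5′ to 3′ on the gene's strand. They lie at chr7:24897247-24897546 (Cd79a, plus strand), chrX:134583091-134583390 (Btk, minus strand), chr13:52583187-52583486 (Syk, plus strand; the more upstream of its windows) and chr8:117498025-117498324 (Plcg2, plus strand). Capitals mark letters matched by 1 of 4 short motifs known from B cell promoters, searched on both strands: the octamer ATTTGCAT, the Ets core AGGAAGT, the E-box CAGGTG and the EBF1 core CCCNNGGG.
Cd79a: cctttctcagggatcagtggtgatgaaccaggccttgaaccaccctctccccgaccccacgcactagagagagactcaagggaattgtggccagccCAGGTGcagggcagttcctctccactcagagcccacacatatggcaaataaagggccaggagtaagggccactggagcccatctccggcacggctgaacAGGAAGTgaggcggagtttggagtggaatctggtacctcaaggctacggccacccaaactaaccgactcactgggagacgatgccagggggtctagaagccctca
Btk: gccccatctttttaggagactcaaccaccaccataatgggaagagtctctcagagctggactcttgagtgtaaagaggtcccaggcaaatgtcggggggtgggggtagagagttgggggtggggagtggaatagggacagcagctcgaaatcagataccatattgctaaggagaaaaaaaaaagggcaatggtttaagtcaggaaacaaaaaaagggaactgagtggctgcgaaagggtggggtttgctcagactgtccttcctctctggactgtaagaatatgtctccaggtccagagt
Syk: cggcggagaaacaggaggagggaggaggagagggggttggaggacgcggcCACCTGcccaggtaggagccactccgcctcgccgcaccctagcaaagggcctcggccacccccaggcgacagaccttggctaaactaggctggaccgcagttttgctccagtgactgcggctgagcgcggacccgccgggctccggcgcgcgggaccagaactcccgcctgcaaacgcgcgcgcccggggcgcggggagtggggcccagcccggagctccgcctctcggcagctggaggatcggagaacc
Plcg2: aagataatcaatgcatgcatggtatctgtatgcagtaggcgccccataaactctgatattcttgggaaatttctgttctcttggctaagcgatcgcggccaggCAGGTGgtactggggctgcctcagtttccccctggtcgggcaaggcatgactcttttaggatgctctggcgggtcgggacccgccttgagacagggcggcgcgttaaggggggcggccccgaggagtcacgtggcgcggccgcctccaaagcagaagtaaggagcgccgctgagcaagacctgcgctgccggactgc

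The Cd79a window held the E-box at base 97 and the Ets core at base 196, the Syk and Plcg2 windows held the E-box at bases 51 and 104, and no match overlapped another. In the Btk window none of the 4 strings was found. Among all 32851 promoter windows of this length, 1.74% held the octamer, 9.35% the Ets core, 20.2% the E-box and 13.7% the EBF1 core. A match is a description of letters and says nothing on binding. Of the 9 genes, 6 had an entry. Blnk and Cd81 had one too but differed by less than 1.1-fold. The Blnk window held the octamer at base 121, the Ets core at base 49 and the E-box at base 91. The Cd81 window held the EBF1 core at bases 32 and 183.

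Values are FPKM, in which fragments are divided by transcript length and by the size of the library, so they can be compared between genes. The depth was approximated as 23000000 fragments in CD80high and 24000000 in CD80low, from low values inside a fixed window. These numbers depend on the window chosen and were not checked otherwise. They give each of the 9 genes roughly 3951 to 54052 fragments per library. At that depth counting error would be small, and the intervals given with each fold cover this error alone. As a check of the labels, Cd80 itself had 4.13 FPKM in the CD80high library and 1.32 FPKM in the CD80low library. Defining B cell genes were abundant in both libraries, such as Ms4a1 (733 and 774 FPKM) and Pax5 (191 and 170 FPKM). The marginal zone genes S1pr3 (91.2 and 68.9 FPKM) and Dtx1 (258 and 252 FPKM) were abundant too. Of 6 marginal zone markers, 5 were higher in CD80high, beside 46.4% of the 9955 genes averaging 1 FPKM or more. Among these 5 were Cd1d1 (126 and 96.8 FPKM), Cd9 (76.3 and 54.9 FPKM) and Myof (55.6 and 38.4 FPKM), and Cr2 was the exception. The FPKM totals of the 2 libraries differed, and bringing both to their mean would add 0.16 to every log2 ratio before the pseudocount of 1 FPKM. Cd81 was the only one of the 9 genes whose direction changed with that scaling.

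The 2 libraries were close for all 9 genes. The gene that differed most, Cd79a, did so by 1.23-fold. Both CD79 chains and the kinase Btk were lower in CD80high, while the kinases Syk and Blk and the phospholipase Plcg2 were each about 1.1-fold higher. Lyn, Blnk and Cd81 differed by 1.01- to 1.04-fold. Ratios, here log2((CD80high FPKM + 1)/(CD80low FPKM + 1)), were above 0 for 5 of the 9 genes, against 46.4% of the 9955 genes averaging 1 FPKM or more and 37.8% of the 1618 genes averaging 50 FPKM or more, the range that all 9 occupy. Their median ratio was 0.02, beside -0.02 over all 9955 genes and -0.06 over the 1618 abundant ones. At least 1.2-fold lower in CD80high was 1 gene, Cd79a, where the same held for 11.4% of all genes and 16.4% of the abundant ones. None was at least 1.2-fold higher, against 8.31% and 6.43%. Brought to the mean total, which moves all genes alike, Syk, Blk and Plcg2, or 3 of the 9, were past 1.2-fold higher and none was past 1.2-fold lower, against 23.1% and 3.97% of the 9962 genes averaging 1 FPKM or more on that scale. Above 0 were then 6 of the 9, against 73.8%. On both scales the shares of the 9 genes lay near the background of the 2 libraries.

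**Figure D1:**
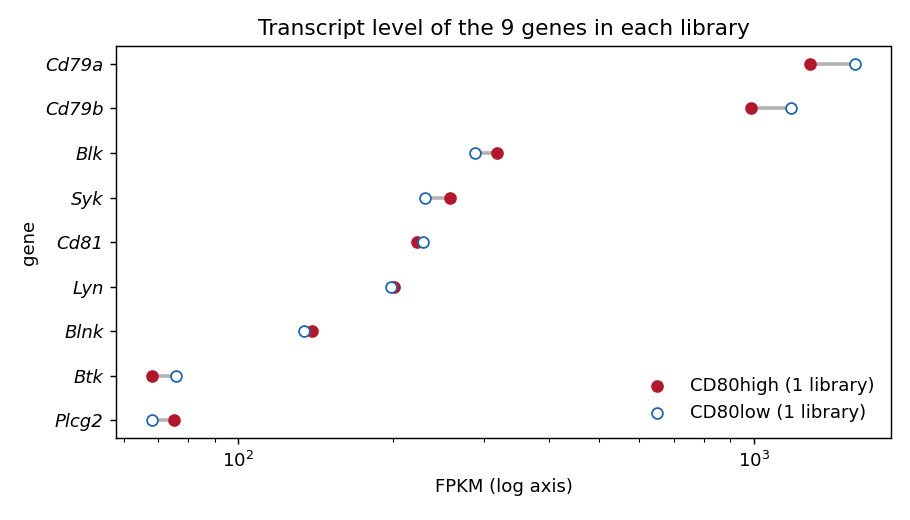
FPKM of each gene (log axis) in CD80high (filled) and CD80low (open), 1 library each, joined by a grey line. Cd79a and Cd79b stand above the other genes in both libraries and are lower in CD80high, and Btk and Plcg2 exchange places at the bottom.

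The signal-carrying chains were by far the most abundant. Cd79a, whose product CD79A (Igα) carries the receptor's signal into the cell (ENSMUSG00000003379, chromosome 7, 24897381 to 24902197, mm10), had 1284 FPKM in the CD80high library and 1574 FPKM in the CD80low library. It was 1.23-fold higher in CD80low, with an approximate 95% counting interval of 1.21 to 1.24, and ranked 80th and 75th of all genes by level. Its ratio of -0.29 was lower than that of most genes, at percentile 9.06 of the 9955. Cd79b, which encodes the partner chain CD79B (Igβ; chromosome 11, 106311341 to 106314762), had 987 FPKM in the CD80high library and 1183 FPKM in the CD80low library, 1.198-fold higher in CD80low (1.18 to 1.22). It lay just inside the 1.2-fold limit and Cd79a just outside it. The partners thus kept nearly the same proportion, with 1.30 FPKM of Cd79a per FPKM of Cd79b in CD80high and 1.33 in CD80low. By level in both libraries, the genes nearest to Cd79a were H2-Eb1, a class II antigen presentation gene (1299 and 1517 FPKM), and Rpl7, a ribosomal protein gene (1334 and 1600 FPKM), a nearness that rests on 2 values per gene.

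Cd81 encodes a tetraspanin that holds the coreceptor together at the cell surface (chromosome 7, 143052739 to 143067934). It had 222 FPKM in the CD80high library and 228 FPKM in the CD80low library. The difference was 1.03-fold, within counting error (0.994 to 1.06), and its direction reversed to a ratio of 0.12 when both libraries were scaled to the mean total and to 0.077 when the ratio was adjusted for transcript length. R74862, a noncoding gene, overlaps Cd81 on the opposite strand, and the sources used here do not state whether fragments were counted by strand. Cr2, the complement receptor of the same coreceptor and a defining gene of marginal zone cells, had 807 and 837 FPKM in CD80high and CD80low, 1.04-fold higher in CD80low.

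The Src family kinases of the complex both had ratios above 0, Lyn of 0.02 and Blk of 0.14. Lyn, which both starts and restrains receptor signalling (chromosome 4, 3678115 to 3791613), had 200.5 FPKM in the CD80high library and 198 FPKM in the CD80low library, a 1.01-fold difference within counting error (0.992 to 1.04). Blk, a kinase largely restricted to B cells (chromosome 14, 63372836 to 63417037), had 317 FPKM in the CD80high library and 288 FPKM in the CD80low library, 1.101-fold higher in CD80high (1.08 to 1.13). Blk was the most abundant kinase of the set in both libraries, and the level of Lyn relative to Blk was 0.632 in CD80high and 0.687 in CD80low. Noncoding genes overlap Lyn on the opposite strand, the long noncoding Gm26857 among them. The pseudogene Gm15154 likewise overlaps Btk, and the microRNA gene Gm27361 overlaps Plcg2, each on the opposite strand.

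Syk, the kinase that docks on the phosphorylated CD79 tails (chromosome 13, 52583173 to 52648792), had 257 FPKM in the CD80high library and 231 FPKM in the CD80low library. This was the largest ratio of the 9 genes towards CD80high, 1.12-fold (1.099 to 1.135). Relative to Cd79a in the same library, which no scaling between libraries can alter, Syk stood at 0.200 in CD80high and 0.146 in CD80low, a 1.37-fold difference; the same comparison gave 1.35-fold for Blk and 1.24-fold for Lyn. Cd79a has a much shorter transcript than these kinases, and with the ratios adjusted for transcript length the differences were 1.18-fold for Syk, 1.252-fold for Blk and 1.11-fold for Lyn. These pairs were chosen after the values were seen. Blnk, the adaptor that SYK phosphorylates (chromosome 19, 40928927 to 40994535), had 139 FPKM in the CD80high library and 134 FPKM in the CD80low library, 1.04-fold higher in CD80high (1.0003 to 1.07).

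Btk and Plcg2, which act together on the BLNK scaffold, went opposite ways. Btk, the Tec family kinase that is mutated in X-linked immunodeficient mice (chromosome X, 134542336 to 134583140), had 67.9 FPKM in the CD80high library and 75.7 FPKM in the CD80low library, 1.11-fold higher in CD80low (1.07 to 1.16). After scaling to the mean total its ratio was -0.0019. Plcg2, the phospholipase that BTK activates (chromosome 8, 117498291 to 117635142), had 75.1 FPKM in the CD80high library and 67.9 FPKM in the CD80low library, 1.11-fold higher in CD80high (1.07 to 1.14). The level of Plcg2 relative to Btk was 1.11 in CD80high and 0.897 in CD80low, a 1.23-fold difference that no scaling between libraries alters and that was 1.16-fold after adjustment for transcript length. Ordered by level, the 9 genes came in the same order in both libraries, Cd79a, Cd79b, Blk, Syk, Cd81, Lyn and Blnk, except that Plcg2 stood above Btk in CD80high and below it in CD80low. Without replicates it cannot be said which neighbours in this order differ beyond the spread between samples.

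**Figure D2:**
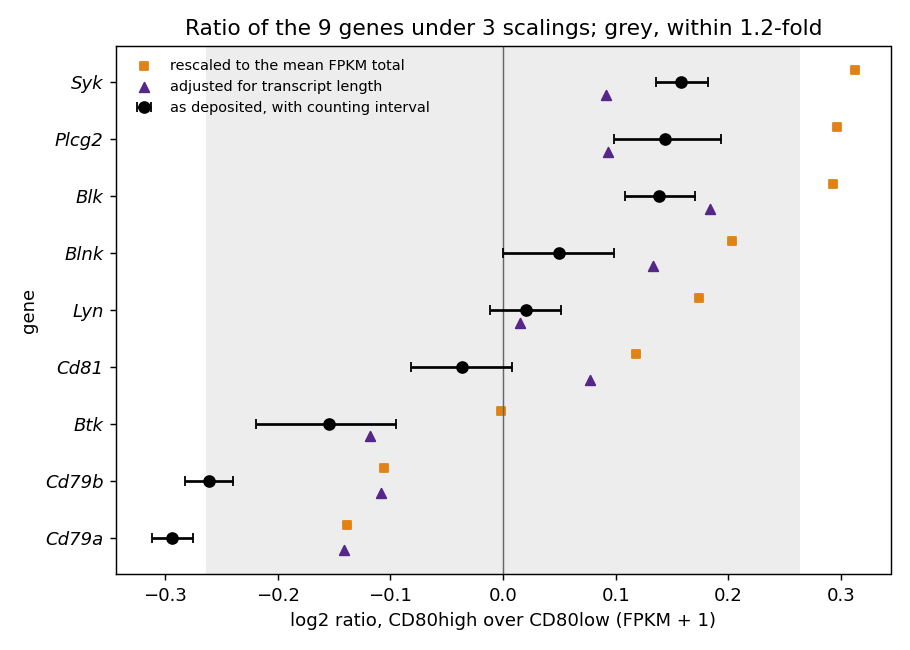
Log2 ratio of each gene, CD80high over CD80low: circles, values as deposited with approximate 95% counting intervals; squares, both libraries scaled to the mean FPKM total; triangles, adjusted for transcript length. Cd79a and Cd79b are below 0 under each of the 3, and squares put Syk, Blk and Plcg2 past 1.2-fold (outside the grey band).

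The authors' deposited table lists p-values of 0.379 for Cd79b, the lowest of the 9, and 0.94 for Lyn, the highest, and a q-value of 0.999 for each of the 9. Those values compare 2 libraries and not the populations.

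Ratios followed transcript length across all genes, and the 9 genes are spread along it. The measured genes were divided into 5 groups of equal size from the shortest to the longest coding transcript, and the median ratios of the groups were -0.18, -0.06, -0.02, 0.03 and 0.10. Cd79a, Cd79b and Cd81, with transcripts of 1457, 1431 and 1533 nucleotides, were in the group of the shortest, and all 3 had ratios below 0. Syk, with 5363 nucleotides, was in the group of the longest and Plcg2, with 4298, in the next. Set against genes of like length, Cd79a came to -0.14, Cd79b to -0.11 and Btk to -0.12, while Blk (0.18), Blnk (0.13), Plcg2 (0.093), Syk (0.092), Cd81 (0.077) and Lyn (0.015) lay above them. None was past 1.2-fold on that scale, for which no share of all genes was computed. What length stands for in these libraries was not tested.

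**Figure D3:**
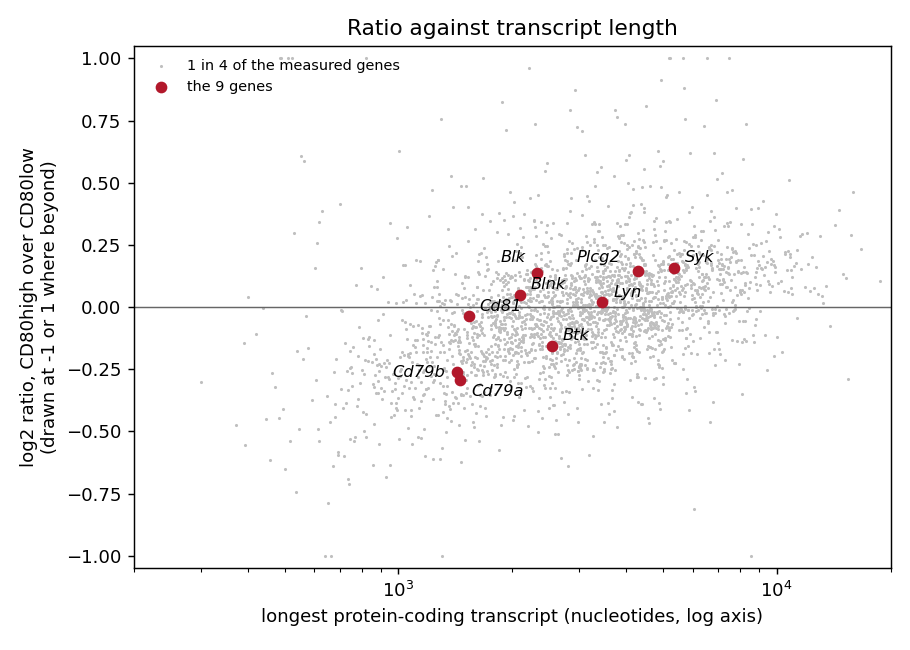
Log2 ratio, CD80high over CD80low, against the longest protein-coding transcript (nucleotides, log axis) for 1 in 4 of the measured genes (grey) and the 9 genes (red). The grey points climb with length, and Cd79a and Cd79b lie at the short end, below the median of genes of like length.

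The genes around the complex were read from 6 lists by role, which together name 73 further genes, 67 of them averaging 1 FPKM or more. Of these 67, 9 were at least 1.2-fold higher in CD80high and 5 at least 1.2-fold lower, beside 8.31% and 11.4% of all measured genes, while 40 were above and 27 below a ratio of 0, beside 46.4% of all genes above 0. The median ratio was 0.047. These counts depend on the scale: with both libraries at the mean total, 24 were at least 1.2-fold higher and 1 lower, beside 23.1% and 3.97% of all genes. That scaling turned 16 of the 67 from below to above 0, among them Cr2, Ptprc, Fyn, Grap, Bank1, Akt1 and Cd22, which are described here.

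The calcium and diacylglycerol branch, which acts straight after Plcg2, had 15 of 20 genes above 0, where 46.4% of all genes were, and a median of 0.12. With both libraries scaled to the mean total, all its genes except Rasgrp3 were above 0, where 73.8% of all genes were. Its median on that scale was 0.27, for which no median over all genes was computed. Adjusted for transcript length, the branch had a median of 0.087. Its most abundant members were Nfatc1, a transcription factor switched on by calcium (123 and 95.2 FPKM in CD80high and CD80low, 1.29-fold higher in CD80high), and Prkcb, a kinase activated by diacylglycerol (115 and 101 FPKM). Itpr2, a calcium channel opened by the calcium-releasing messenger, had 33.1 and 26.8 FPKM. Rasgrp3, a diacylglycerol-responsive activator of Ras, went the other way with 51.9 and 67.5 FPKM, 1.30-fold higher in CD80low.

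Adaptors and exchange factors had 9 of 15 measured genes below 0, near the 53.5% of all genes, and a median of -0.10, which was 0.052 with both libraries scaled to the mean total. The abundant Grap (158 and 174 FPKM) and Bank1 (154 and 165 FPKM) were within 1.2-fold. Sos1, which activates Ras, had 10.3 and 8.30 FPKM, while Vav3 (2.99 and 3.86 FPKM) and Nck2 (3.52 and 4.596 FPKM) were lower in CD80high. Among other kinases of the Src, Syk and Tec families, 5 of 8 averaged 1 FPKM or more and none had a ratio past 1.2-fold. The shares of all measured genes were 8.31% at least 1.2-fold higher in CD80high and 11.4% at least 1.2-fold lower. Fyn had 32.0 and 33.0 FPKM and Tec, a relative of Btk, 21.4 and 24.6 FPKM. Zap70, the T cell relative of Syk, stood at 4.71 and 3.77 FPKM, 1.249-fold higher in CD80high by FPKM itself but inside 1.2-fold once 1 FPKM is added to both. The coreceptor and surface list held Cr2 and Ptprc, the phosphatase CD45 (362 and 383 FPKM), with a median of -0.068, which was 0.087 with both libraries scaled to the mean total.

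Of 6 measured PI3 kinase genes 1 was past 1.2-fold, Pik3cg (11.7 and 15.9 FPKM), 1.36-fold higher in CD80low. Of all measured genes, 11.4% were at least 1.2-fold lower in CD80high and 8.31% at least 1.2-fold higher. The catalytic subunit Pik3cd had 61.5 and 61.1 FPKM and the kinase Akt1 37.6 and 37.7 FPKM. Inhibitory receptors and effectors had 13 of 19 genes above 0, 6 of them at least 1.2-fold, beside 46.4% and 8.31% of all genes, and a median of 0.10, which was 0.26 at the mean total. Ptpn6, the phosphatase SHP-1 that opposes these kinases, had 1101 FPKM in the CD80high library and 360 FPKM in the CD80low library, a 3.06-fold difference to which the authors' deposited table gives a p-value of 0.246. Cd22, which recruits SHP-1, had 440 and 478 FPKM. Cd72, another such receptor, had 229 and 282 FPKM and was 1.23-fold higher in CD80low, and Cd5, which T cells and B-1 cells carry, had 2.21 and 1.196 FPKM.

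**Figure D4:**
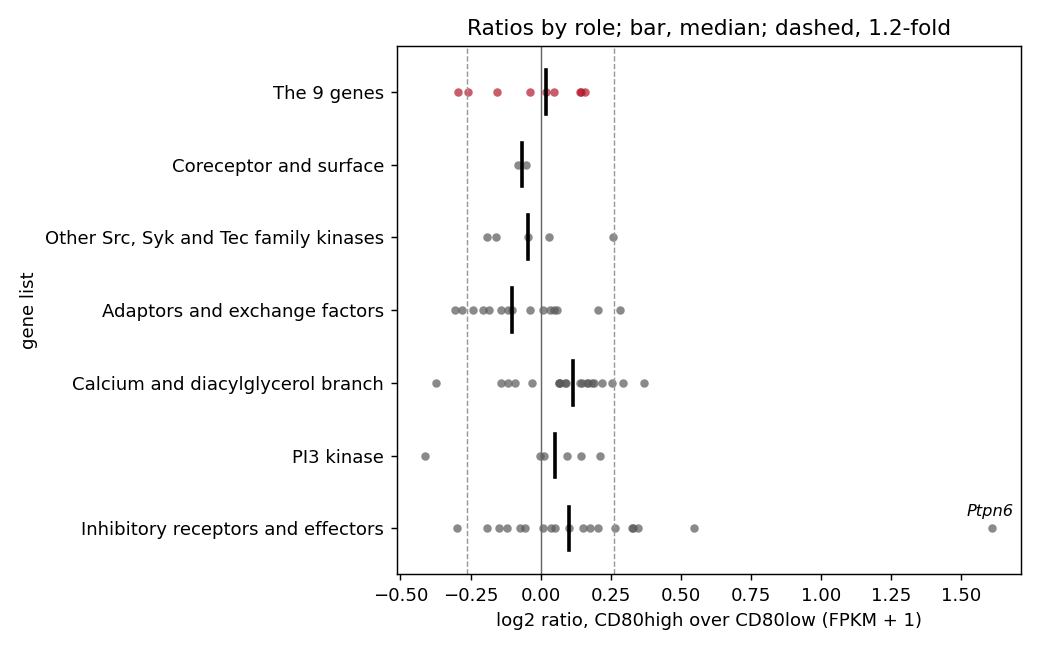
Log2 ratio, CD80high over CD80low, of the 9 genes (red) and of the measured genes of 6 lists by role (grey); black bars mark medians and dashed lines 1.2-fold. Medians lie between -0.10 and 0.12, and Ptpn6 lies far from all others.

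Myeloid cells also use Syk, Btk, Lyn and Plcg2, and T cells use Zap70, so markers of other cells are given beside these values. In the macrophage and monocyte list of 9 markers, 8 were higher in CD80high, and the summed level was 15.0 FPKM in CD80high and 9.41 FPKM in CD80low, of which Cd68 held 9.16 and 6.81 FPKM. Its markers Adgre1 (1.58 and 0.895 FPKM) and Csf1r (1.73 and 0.543 FPKM) were low. All 9 T cell markers were higher in CD80high, with sums of 12.9 and 5.85 FPKM, and Cd3e was listed at 0 in CD80low. Over all 45 markers of other cells, 41 were higher in CD80high, and the sums were 63.6 and 35.3 FPKM. Of the 9955 genes averaging 1 FPKM or more, 46.4% had a ratio above 0. Many of the markers lay below that minimum, and no share was computed for genes so low. Listed at 0 in both libraries were Fcgr1, Ly6g and Xcr1. Their part in the ratios of the 9 genes was not tested. In bulk libraries such as these, fewer cells of a type and less RNA per cell cannot be told apart.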

How the data were processed

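RNA of CD80high and CD80low marginal zone B cells was sequenced from directional libraries, 1 per population. Per the submitters' processing notes the build was mm10 and the named tools were Cufflinks 2.2.1 with Cuffdiff and Cuffnorm, STAR 2.6 and FastQC 0.11.5. The deposited FPKM values, and the p-value and q-value the authors made from 1 library per group, were used as they are. Symbols on several rows (24) were summed. From these, log2((CD80high FPKM + 1)/(CD80low FPKM + 1)) was computed for genes averaging 1 FPKM or more, with no test; printed folds are of FPKM itself, while counts of genes past 1.2-fold use this ratio. The authors' starts count from 0, so 1 was added. One fragment was taken as about 0.0424 FPKM kb in CD80low. This is the median of 155 values of both libraries between 0.03 and 0.055 FPKM kb, in genes of 1 transcript over 2000 nucleotides. That fixed window is centred near the value it gave. The 0.0437 of CD80high follows from a log2 step of 0.042 between the libraries, the median of 146 of 638 low genes whose ratio was near 0. Fragments per gene follow from this and the longest coding transcript (GENCODE M21, GRCm38, matched by Ensembl identifier). Intervals are exact conditional (Clopper-Pearson) intervals at 95%, cover counting error only and are approximate. The length adjustment subtracts the median ratio of the gene's bin among 20 of equal size. It was run on made-up data with a gentler trend and less noise, which does not show how well it works here.

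Members, lists and alternatives were chosen with earlier results of these data known. All 9 members are named, and from each role list the 2 genes of highest mean FPKM and up to 2 in each direction with the largest ratio past 1.2-fold, and for Cd79a the 2 nearest genes. A few genes of these lists and 1 list are not reported here, and were left out of the counts. Genes given beyond that rule were picked after their values were seen. The software was scipy 1.17.1, pandas 2.3.3, numpy 2.4.6 and matplotlib 3.10.9 under Python 3.11.15.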

Additional observations from a re-analysis of the deposited data

How the results depend on the processing

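No paired analysis was possible because only 1 library was made per group, and none could be left out. Count tests were not run because the files hold FPKM. Cd79a, Cd79b and Btk stayed below 0 and Syk, Blk, Plcg2, Blnk and Lyn above 0 in all 9 alternatives; Cd81 was below 0 as computed and above 0 in 3 of them. Pseudocount 0.1, centring on the median ratio and the overview sheet, which differs in 5 genes and none of these, moved no result as judged here. A ratio was called moved once it changed by more than the counting error of its gene. A median was called moved once it changed by more than that of a typical gene of its set. Counts could change within a fixed factor. The pathway genes at least 1.2-fold higher, 9 as computed, were thus not called moved at 11 with pseudocount 0.1 or centring. Scaling to the mean total moved 20 of 21 results: the ratios became -0.14 (Cd79a), -0.11 (Cd79b), 0.12 (Cd81), 0.31 (Syk), -0.0019 (Btk), 0.20 (Blnk), 0.17 (Lyn), 0.29 (Blk) and 0.30 (Plcg2), the median of the 9 became 0.17, and 3 genes were then at least 1.2-fold higher and 0 lower. List medians became 0.087 (coreceptor), 0.11 (other kinases), 0.052 (adaptors), 0.27 (calcium), 0.20 (PI3 kinase) and 0.26 (inhibitory), with 24 pathway genes at least 1.2-fold higher and 1 lower. Adjusted for length, Cd79a was -0.14, Cd79b -0.11, Cd81 0.077, Syk 0.092, Blnk 0.13, Blk 0.18, Plcg2 0.093, the median of the 9 0.077 and the coreceptor median -0.14, with 0 of the 9 at least 1.2-fold lower and 5 pathway genes higher. With the median coding length, chosen after seeing the data, the values were -0.20 for Cd79a, -0.16 for Cd79b, 0.090 for Cd81, 0.071 for Syk and 0.080 for Plcg2; the median of the 9 was 0.071 and that of the coreceptor list -0.099, with 0 at least 1.2-fold lower. A pseudocount of 5 left 4 pathway genes higher and 3 lower, and a minimum of 5 FPKM left 3 lower. No share of all genes was computed beside the counts under length adjustment, that pseudocount or that minimum. The adaptor median was -0.037 with the minimum of 5 FPKM and with none. Scaling to the mean total moved the ratios because it adds 0.16 to every log2 ratio before the pseudocount. Why the FPKM totals differed, and why ratios followed transcript length, was not tested. If the approximate depth holds, depth limits little here. The missing replicates limit every difference.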
